A study of Mus musculus with 8 samples.

Results

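Of the 1425 genes that the authors assigned to regions with more p53 in bleomycin-treated alveolar organoids, 51 are described here. Their symbols name families of membrane transporters, ion pumps or ion channels, or proteins named after such families. The 51 genes were taken from the authors' gene table by these symbols, which begin with Slc, Abc, Atp, Kcn, Cacn or Trp and the family code. The rule also covered sodium channels (Scn), chloride channels (Clcn) and aquaporins (Aqp), and the table held none. Channel genes with other symbols, such as *Cftr*, *Ano1* and *Piezo1*, count among the other genes of the table. The 51 genes make 57 pairs of gene and region on 56 of the 909 regions that the table assigns, and 915 regions were deposited in all. A gene is in the table only because its region was chosen on the contrast of treated against vehicle libraries, so every value below that rests on this contrast is a description and was not tested.

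The organoids were grown without feeder cells from alveolar type II (AT2) cells, the surfactant-making stem cells of the lung alveolus, of wild-type male mice aged 8 to 12 weeks. CTRL organoids received vehicle (DMSO) and BLM organoids 100 μM bleomycin, a drug that breaks DNA, for 24 h each, with 2 p53 ChIP libraries per condition. The study took its ChIP-seq data from 2 mice, and which libraries share a mouse is not given in the sources used here, so the replicates may be technical in part. Peak lists from chromatin give no marker expression, and the identity of the cells was therefore not checked here. The CTRL lists held 50430 and 48743 peaks and the BLM lists 39577 and 41451, no read counts were used here, and the depth of the libraries is unknown.

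Transporters move sugars, amino acids, metals and ions across membranes, and in AT2 cells such proteins drive the removal of alveolar fluid and load lipid and protons into lamellar bodies. p53 is a transcription factor that is stabilised by DNA damage and binds a response element made of a pair of half-sites, often close to the transcription start site (TSS) of the genes it activates. Transporter genes such as *Slc2a1* and *Kcnq1* have been linked to p53 in other cells. Several of the genes described here are better known for roles in kidney, nerve, muscle or liver.

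Few of the transporter genes had an enriched region at their promoter. The distance from the TSS to the middle of the nearest region had a median of 85516 bp over the 51 genes, against 53266 bp over the other 1374 genes of the table. The quartiles were 16470 and 214666 bp for the transporter genes and 15566 and 145707 bp for the others, so the lower quartiles lay close together and the upper ones apart. Regions within 5 kb of the TSS were assigned to 4 transporter genes (7.84%) and to 181 other genes (13.2%), with 13.0% over the whole table. Distances over 200 kb were held by 14 transporter genes (27.5%) and 266 others (19.4%). The region lay downstream of the TSS, which includes the gene body, for 33 transporter genes and upstream for 18 (35.3%, against 41.7% of the others). It fell within the RefSeq span of the gene itself for 13 of the 51 (25.5%, against 28.7%).

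**Figure D1:**
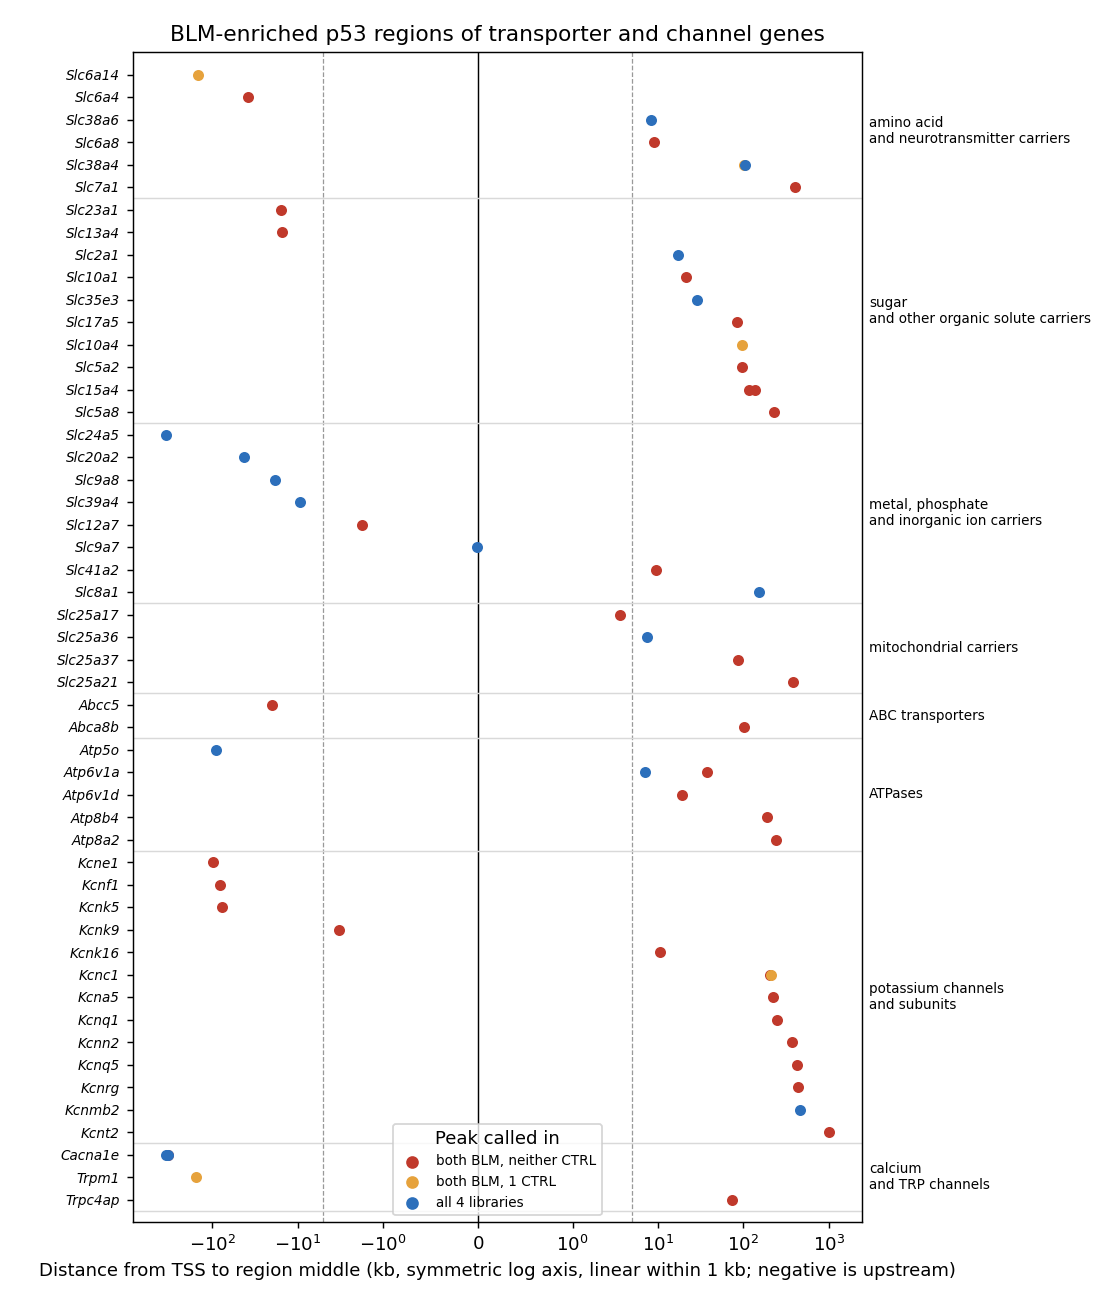
Distance in kb from the TSS to the middle of each enriched region of the 51 transporter genes, on a symmetric log axis that is linear within 1 kb, grouped by role and coloured by the libraries with a peak over the region, with dashed lines at 5 kb. Only *Slc9a7*, *Slc12a7*, *Kcnk9* and *Slc25a17* have a point between the dashed lines, and most potassium channel genes lie far to the right.

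The promoter sequence was looked at for 3 solute carriers, because they show the cases met among the transporter genes: an enriched region over the promoter, a p53 half-site without a peak, and a peak in every library with the enriched region elsewhere. Each sequence is RefSeq's, on GRCm38.p6, read 5′ to 3′ on the strand of the gene from 250 bases before the TSS to 50 after it. Capitals mark the p53 half-site consensus and the CATG that forms the core of many half-sites. The *Slc9a7* window is chrX:20291778-20292077, minus strand. The *Slc10a1* window is chr12:80968656-80968955, minus strand. The *Slc38a6* window is chr12:73286598-73286897, plus strand.
Slc9a7: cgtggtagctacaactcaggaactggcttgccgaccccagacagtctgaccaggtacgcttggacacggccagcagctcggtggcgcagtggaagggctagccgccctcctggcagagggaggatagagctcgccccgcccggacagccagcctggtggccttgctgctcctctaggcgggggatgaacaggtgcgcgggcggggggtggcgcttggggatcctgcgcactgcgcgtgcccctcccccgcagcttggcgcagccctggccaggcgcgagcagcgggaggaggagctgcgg
Slc10a1: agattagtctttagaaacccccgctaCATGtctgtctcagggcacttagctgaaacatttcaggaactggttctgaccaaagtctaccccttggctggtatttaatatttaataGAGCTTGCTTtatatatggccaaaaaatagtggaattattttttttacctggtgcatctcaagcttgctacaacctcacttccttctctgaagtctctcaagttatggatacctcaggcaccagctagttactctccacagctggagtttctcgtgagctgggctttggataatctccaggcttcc
Slc38a6: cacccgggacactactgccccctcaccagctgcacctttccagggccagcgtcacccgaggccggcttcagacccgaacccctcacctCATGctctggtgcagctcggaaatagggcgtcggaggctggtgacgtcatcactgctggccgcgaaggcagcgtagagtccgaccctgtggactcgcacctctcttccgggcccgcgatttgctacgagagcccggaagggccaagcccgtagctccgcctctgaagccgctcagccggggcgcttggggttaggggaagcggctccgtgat

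*Slc9a7*, a sodium/proton exchanger of the trans-Golgi network, was the transporter gene with the nearest region, whose middle lies 10 bp upstream of the TSS at chrX:20157857-20158256. This position and those of all other regions are on GRCm39. Its promoter is rich in G and C (70.7%, with 24 CG dinucleotides) and has neither a half-site nor a CATG in this window. In *Slc10a1*, the bile acid importer of hepatocytes, the half-site starts 136 bases upstream of the TSS, and no library had a peak over that window. The *Slc38a6* window has a single CATG and no half-site, and all 4 libraries had a peak there.

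Over the 40 transporter genes whose strand and promoter were found in the reference, *Slc10a1* was the only one with a p53 half-site in the promoter window. The share was 7.53% over the 1075 genes of the table with a promoter sequence and 8.37% over all 27025 promoters of the reference. A full site with at most 3 mismatches was found in 0 of the 40, against 1.95% of the table's genes and 1.40% of all promoters. CATG alone, which overlaps many half-sites, was in 22 of the 40 windows (55.0%, against 43.0% and 61.5%). These motifs read the same on both strands, so that each search covers both. These are letters in a window and do not show where p53 binds, and the sequence under the enriched regions themselves was not read here.

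The 4 genes with a region within 5 kb had peaks of middling height, and at 3 of them the BLM replicates lay far apart. *Slc9a7* had a peak over its region in all 4 libraries. The fold enrichment over local background was 5.55 and 7.78 for CTRL and 6.42 and 11.4 for BLM. BLM replicate 1 lay between the CTRL values, so the conditions overlap at this gene. *Slc12a7* encodes a potassium-chloride cotransporter, and its region lies 1737 bp upstream of the TSS at chr13:73909880-73910279. No CTRL library had a peak there, and the BLM peaks had fold enrichments of 7.95 and 18.1, ranks 13514 and 1015 of their lists. *Kcnk9*, which encodes an acid-sensitive background potassium channel, had its region 3303 bp upstream at chr15:72421232-72421631. It again had peaks in the BLM libraries only, at 4.28 and 11.5, ranks 35968 and 5448. As percentiles, where 100 is the highest peak of a list, these ranks are 9.12 and 86.9, so the replicates disagreed on how strong this peak was. *Slc25a17*, a peroxisomal carrier of coenzymes, had its region within the gene, 3632 bp downstream of the TSS at chr15:81241135-81241534. Its BLM peaks had fold enrichments of 8.36 and 6.64, at the 70.4 and 50.3 percentiles, with no CTRL peak. The next gene outside the limit was *Atp6v1a* at 7126 bp. *Slc9a7*, *Slc12a7* and *Kcnk9* were each the sole gene of their region.

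Transporter genes were more often the farther than the nearer gene of a region. The authors' assignment extends each gene towards its neighbours, so that a region between genes goes to the gene on either side, and 47 of the 51 transporter genes (92.2%, against 89.8% of the others) shared their nearest region with a second gene. The transporter gene was the nearer or the sole gene for 20 of 51 (39.2%), against 794 of the other 1374 (57.8%) and 57.1% over the table. For the 31 transporter genes that were farther, the median distance was 147341 bp, while the other gene of the same region lay at a median of 40185 bp. The other gene lay within 10 kb for 9 of these 31 and within 5 kb for 3. For the 20 nearer or sole genes the median distance was 9959 bp. The region fell inside the RefSeq span of the other gene for 12 of the 51. The counts within 10 kb, within 5 kb and inside this span are not given for the other 1374 genes, so they have no background.

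**Figure D2:**
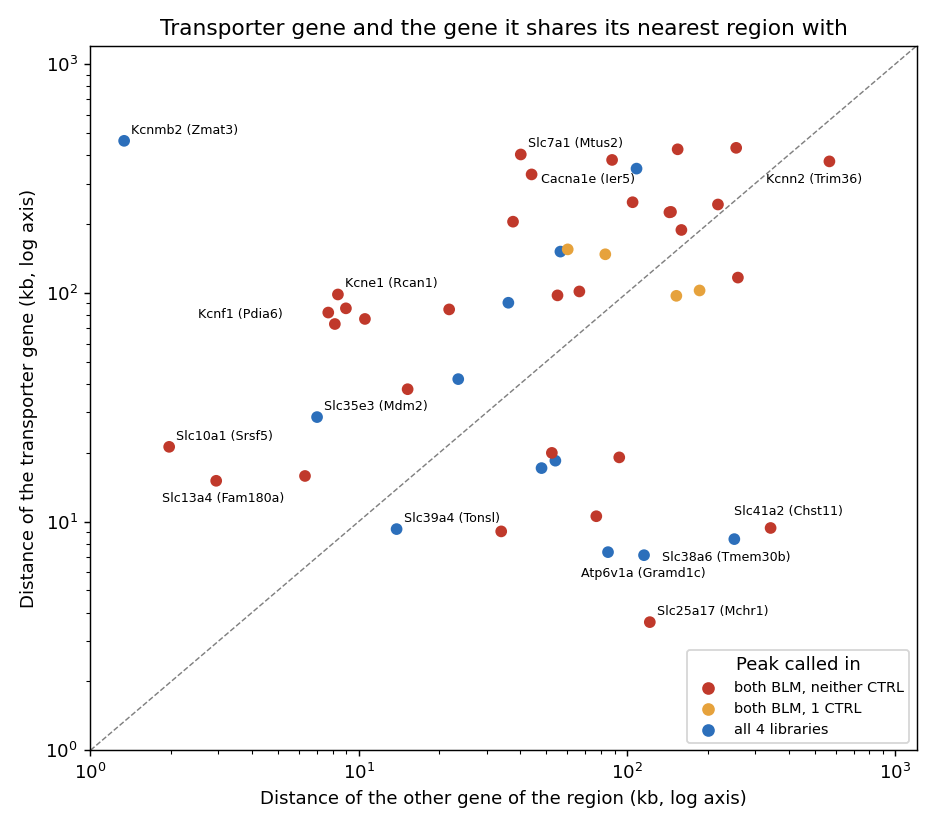
Distance in kb of the other gene of the region (horizontal, log axis) against the distance of the transporter gene (vertical, log axis) for the 47 transporter genes that share their nearest region, coloured by the libraries with a peak, with the other gene's name in brackets for selected points. The 31 points above the dashed line of equal distance are transporter genes that lie farther from the region than the other gene.

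The clearest cases were regions next to established p53 targets. *Kcnmb2*, an auxiliary subunit of the calcium-activated BK potassium channel, was assigned a region at chr3:32418293-32418692 that lies 461640 bp from its TSS. The same region lies 1335 bp from the TSS of *Zmat3*, an RNA-binding protein and known p53 target, within the *Zmat3* gene, a distance 346 times shorter. *Slc35e3*, a member of the nucleotide sugar transporter family, shared the region chr10:117553457-117553856 with *Mdm2*, the ubiquitin ligase that degrades p53. The middle lies 28614 bp from *Slc35e3* and 6993 bp upstream of *Mdm2*. A list of 53 established p53 targets shows the contrast in position: 30 were in the table, 26 of them with a region within 5 kb, and *Mdm2* and *Zmat3* were those that shared a region with a transporter gene. The list rests on known targets and is not independent of these data.

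Other regions far from a transporter gene were also close to a second gene. *Slc10a1* lies 21208 bp from a region that is 1965 bp from *Srsf5*, a splicing factor. *Slc13a4*, a sulfate transporter, lies 15068 bp from a region that is 2942 bp from *Fam180a*. The vitamin C transporter *Slc23a1* is 15818 bp away, and *Mzb1*, a chaperone of antibody-secreting cells, 6305 bp. *Kcnf1*, a silent potassium channel subunit, and *Kcne1*, the small partner of Kcnq1, lie 81958 and 98314 bp away from regions within 10 kb of *Pdia6* and *Rcan1*. The adaptor *Trpc4ap* lies 73025 bp from a region that is 8147 bp from *Myh7b*. The reverse also occurred. *Slc41a2*, a magnesium transporter, lies 9371 bp from a region within its own span while the other gene, *Chst11*, is 343013 bp away.

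In the libraries, the regions of transporter genes had shares close to those of the whole table. A region was counted as called in a library when a peak of that list overlapped it by at least 1 bp. Of the 56 regions, 35 (62.5%) had a peak in the 2 BLM lists and in no CTRL list, against 484 of the other 853 regions (56.7%) and 57.1% over all assigned regions. All 4 libraries had a peak over 16 regions (28.6%, against 30.4% of the other regions and 30.3% of all assigned regions). A peak in both BLM and 1 CTRL library was found over 5 regions (8.93%, against 12.8% and 12.5%). By gene, the nearest region had peaks in the BLM lists alone for 34 of 51 (66.7%), against 58.9% of the others and 59.2% of all genes, and it had peaks in all 4 for 13 (25.5%, against 28.3% and 28.2%). Among the 16 regions called everywhere, the fold enrichment was higher in both BLM than in both CTRL libraries for 13 (81.3%), against 86.9% of the other regions and 86.5% overall. The 3 regions whose values overlapped between conditions belonged to *Slc9a7*, to *Slc24a5* and to *Cacna1e*, the last being the farthest of its regions. The ratio of the mean BLM to the mean CTRL fold enrichment in these 16 had a median of 2.21 and ran from 1.03 to 5.13, with a median of 2.49 in the other regions called everywhere.

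**Figure D3:**
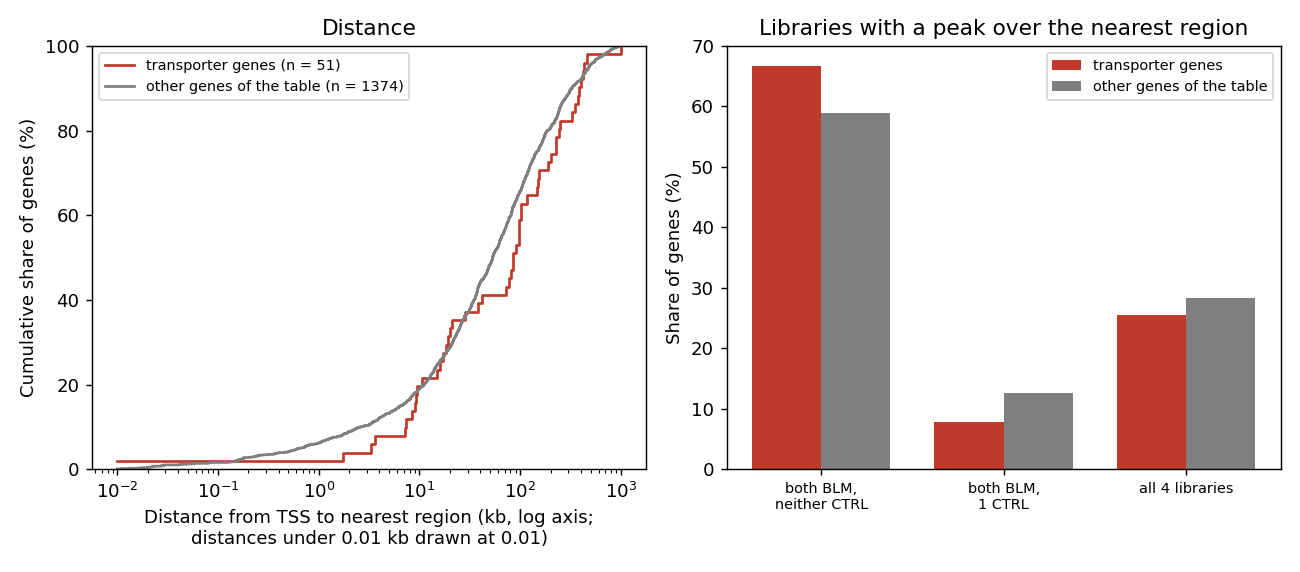
Left, cumulative share of genes in percent against the distance in kb (log axis) from the TSS to the nearest region, for 51 transporter genes and 1374 other genes; right, share of genes in percent by the libraries with a peak over the nearest region. The curve of the transporter genes runs to the right of the other genes beyond 50 kb, and both groups have most of their nearest regions in the class with peaks in the BLM lists alone.

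Each peak was also ranked by fold enrichment within its own list. The median percentile of the transporter regions was 78.6 and 85.3 in BLM replicates 1 and 2, against 88.9 and 86.2 for the other regions. In the CTRL lists, where only the 18 and 19 regions with a peak have a value, the medians were 75.4 and 66.3, against 56.4 and 57.8. In fold enrichment the BLM medians were 9.54 and 11.0, against 11.9 and 11.3. The highest 1% of both BLM lists held 12 of the 56 regions (21.4%), against 19.6% of the other regions and 19.7% overall. The lower part of both BLM lists, under the 50th percentile, held 4 (7.14%), with 7.15% overall. BLM replicates differed by a median of 7.09 percentile points over the transporter regions and by 6.78 over the others. The gap was over 50 points for *Kcnk9* and for *Kcna5*, a voltage-gated potassium channel whose peaks stood at the 62.5 and 8.32 percentiles.

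**Figure D4:**
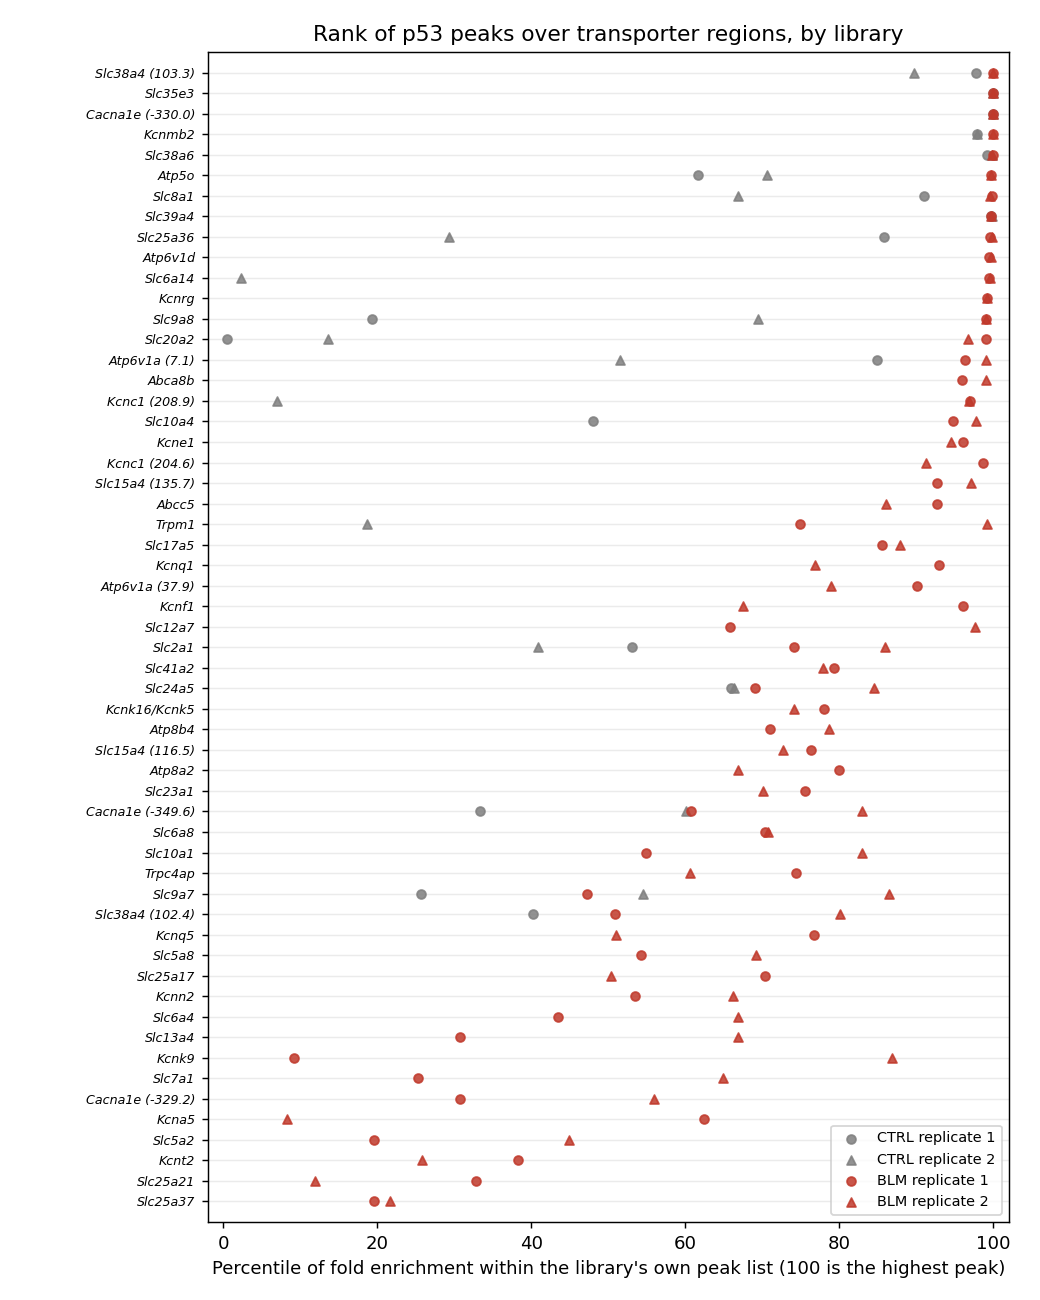
Percentile of fold enrichment within each library's own list for the peaks over the 56 regions of transporter genes, one row per region with the distance in kb in brackets where a gene has several, CTRL in grey and BLM in red, circles for replicate 1 and triangles for replicate 2. Rows are sorted by the mean BLM percentile, and a missing grey point means that the CTRL library had no peak there.

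The highest BLM peaks over transporter regions were already high in CTRL organoids for some genes and low in others. *Cacna1e*, the pore subunit of an R-type calcium channel, had 3 regions, all far upstream. The strongest lies 329977 bp from its TSS at chr1:154931880-154932279, and 43303 bp from *Ier5*, an immediate early gene. Its fold enrichment was 38.7 and 49.0 in CTRL and 118 and 75.0 in BLM libraries, where it was rank 1 of BLM replicate 1 and rank 21 of BLM replicate 2. The CTRL ranks were 37 and 12, so this region was among the highest peaks of every list. The means were 43.8 ± 7.30 for CTRL and 96.6 ± 30.6 for BLM (SD, n = 2 each). The *Slc35e3* region next to *Mdm2* was likewise high throughout, at 45.5 and 47.9 in CTRL and 85.1 and 88.9 in BLM, ranks 18, 15, 11 and 10. The *Kcnmb2* region at *Zmat3* had 22.4 and 22.1 in CTRL and 70.7 and 99.7 in BLM libraries, ranks 30 and 3 in the latter. At none of these 3 regions did the fold enrichments of the conditions overlap, though the ranks did at the *Cacna1e* region. The other regions of *Cacna1e* were weaker. The one at 329187 bp had no CTRL peak and 5.51 and 7.06 for BLM, and the one at 349550 bp had 6.01 and 8.39 for CTRL and 7.43 and 10.5 for BLM.

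Carriers of amino acids and neurotransmitters numbered 6, with a median distance of 70125 bp. *Slc38a6*, an amino acid transporter of the SNAT family, had the region with the highest mean BLM percentile of those within 10 kb of a transporter TSS. It lies 8377 bp downstream, within the gene, at chr12:73341731-73342130. The fold enrichment was 26.9 and 33.7 in CTRL and 84.9 and 49.4 in BLM libraries, ranks 388, 87, 12 and 69. Both BLM values exceeded both CTRL values, with means of 67.2 ± 25.1 and 30.3 ± 4.80 (SD, n = 2 each). *Slc38a4*, which carries neutral amino acids by sodium cotransport, had a pair of regions downstream, less than 1 kb apart. The one at chr15:96850380-96850779, 103258 bp away, had 22.1 and 15.2 in CTRL and 101 and 90.9 in BLM libraries, ranks 3 and 8 of the BLM lists. The other, at 102366 bp, had 6.54 in CTRL replicate 1, no peak in CTRL replicate 2, and 6.71 and 9.89 in BLM.

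*Slc6a14*, an importer of neutral and cationic amino acids that is made in the airway and lung, had a region 147341 bp upstream at chrX:21433595-21433994. A weak CTRL peak of 3.65 was called in replicate 2 alone, while the BLM peaks had 27.9 and 31.2, ranks 214 and 170. The peaks over this region thus stood near the top of the BLM lists and near the bottom of 1 CTRL list. The promoter of *Slc6a14* itself had peaks in every library, with values given below. The creatine transporter *Slc6a8* had peaks in BLM alone, 9054 bp into the gene, at 8.36 and 8.52. The serotonin transporter *Slc6a4* and the arginine and lysine importer *Slc7a1* had BLM peaks between 5.20 and 8.12 in the libraries, 37884 and 402399 bp away, and no CTRL peak.

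Sugar, vitamin, bile acid, peptide and other organic solute carriers numbered 10, with a median distance of 56600 bp and none within 5 kb. Groups were set by gene symbol, and this one also holds the sulfate transporter *Slc13a4*. *Slc2a1*, the basal glucose importer, had a region within the gene, 17122 bp from the TSS at chr4:118982831-118983230. Its fold enrichment was 7.59 and 6.56 in CTRL and 8.85 and 11.2 in BLM libraries. The BLM values were above the CTRL values, with a ratio of means of 1.42. *Slc15a4*, a histidine and peptide transporter of lysosomes, had 2 regions 116537 and 135724 bp downstream, both within the span of *Tmem132c*. At the nearer one the BLM peaks had 9.15 and 8.82 and at the farther one 13.3 and 17.3, with no CTRL peak at either. The sialic acid exporter *Slc17a5* had peaks of 10.9 and 11.8 in BLM libraries alone, 84586 bp away, and *Slc10a4*, a vesicle protein of the bile acid carrier family, had 7.14 in CTRL replicate 1 and 14.6 and 18.4 in BLM. *Slc5a2*, the glucose cotransporter of the kidney, had low BLM peaks of 4.89 and 6.29, and *Slc5a8*, which imports short-chain monocarboxylates, 6.93 and 8.34. At *Slc10a1*, *Slc13a4* and *Slc23a1*, whose regions lie closer to a second gene, the BLM peaks ran from 5.51 to 10.5 with no CTRL peak.

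Carriers of metals, phosphate and inorganic ions were the group with the shortest distances, at a median of 13911 bp over 8 genes. The sulfate transporter *Slc13a4* is not counted among them. Of the 8 genes, 6 lay within 50 kb, as did 48.0% of all genes of the table. A peak in all 4 libraries over the nearest region was found for 6, against 28.2% of all genes. The remaining 2, *Slc12a7* and *Slc41a2*, had peaks in BLM alone, against 59.2%. These are counts over 8 genes, and no difference was tested. *Slc39a4*, the zinc importer of the gut, had a region 9266 bp upstream at chr15:76510119-76510518, with the repair gene *Tonsl* 13840 bp away. The fold enrichment was 30.7 and 32.6 in CTRL and 38.5 and 36.0 in BLM, ranks 176, 113, 111 and 129, so that it stood near the top of every list with a ratio of means of 1.18. *Slc8a1*, the sodium/calcium exchanger of heart muscle, had a region 151377 bp into the gene at chr17:81805460-81805859. Its values were 15.9 and 9.41 in CTRL and 48.0 and 31.4 in BLM libraries.

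The phosphate importer *Slc20a2* had the lowest CTRL peaks of this group. They had 3.09 and 4.74, ranks 50212 and 42113, while the BLM peaks had 22.6 and 16.8, ranks 398 and 1371. The ratio of means was 5.04. *Slc9a8*, a sodium/proton exchanger like *Slc9a7*, had 5.15 and 9.80 in CTRL and 22.5 in both BLM libraries, 18450 bp upstream. *Slc24a5*, an exchanger of pigment cell organelles, had 9.21 and 9.32 in CTRL and 8.26 and 10.8 in BLM, a ratio of means of 1.03, at 349020 bp.

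The 4 genes of the Slc25 family, most of them carriers of the inner mitochondrial membrane, spread over the whole range. *Slc25a36*, which carries pyrimidine nucleotides, had a region 7348 bp into the gene at chr9:96985663-96986062. The fold enrichment was 13.6 and 5.81 in CTRL and 30.6 and 49.7 in BLM libraries, ranks 174 and 68 in the latter. *Slc25a37*, the iron importer of mitochondria, and *Slc25a21*, a carrier of oxodicarboxylates, stood at the other end. Their BLM peaks had 4.89 and 5.03, and 5.57 and 4.44, with no CTRL peak. Over their assigned regions, both ABC transporters had peaks in BLM libraries alone, a pattern held by 59.2% of all genes of the table. *Abca8b*, a lipid transporter, had 15.5 and 22.7 at a distance of 101354 bp, and *Abcc5*, which exports cyclic nucleotides, 13.3 and 11.2 at 19956 bp upstream.

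The 5 ATPase genes comprised parts of the proton pump of lysosomes and lamellar bodies, lipid flippases and a subunit of the mitochondrial ATP synthase. *Atp6v1a*, the catalytic subunit of the proton pump, had 2 regions within its gene. The nearer, 7126 bp from the TSS at chr16:43952343-43952742, had 13.4 and 7.47 in CTRL and 16.0 and 22.4 in BLM libraries, and the farther, at 37858 bp, had 12.2 and 9.78 in BLM alone. *Atp6v1d*, another subunit of the same pump, had its region 19073 bp downstream at chr12:78889140-78889539. Over this region no CTRL library had a peak, and the BLM peaks had 26.6 and 38.9, ranks 228 and 104. Its promoter had peaks in every library, at 14.5 and 13.5 in CTRL and 5.06 and 13.4 in BLM. *Atp5o*, the synthase subunit, had 8.60 and 9.95 in CTRL and 40.5 and 37.6 in BLM, ranks 19322 and 14305 of the longer CTRL lists and ranks 101 and 119 of the BLM lists, at 90460 bp. The flippase genes *Atp8a2* and *Atp8b4* had BLM peaks between 8.12 and 9.75 at 243223 and 188207 bp.

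Potassium channel genes were the group with the longest distances. Over the 13 genes the median was 224768 bp, and they made up 8 of the 14 transporter genes over 200 kb from their region. Over the nearest region, 12 of the 13 had peaks in the BLM lists alone, a pattern held by 59.2% of all genes of the table, and *Kcnmb2* was the exception. No difference between this group and other genes was tested. *Kcnt2*, a sodium-activated channel, lay farthest of all at 998675 bp, close to the 1 Mb limit of the authors' assignment, with low BLM peaks of 5.96 and 5.30. *Kcnc1*, a fast voltage-gated channel of neurons, had 2 regions inside *Sergef*, 204563 and 208944 bp away. The nearer, at chr7:46251436-46251835, had 20.7 and 13.0 in BLM alone, and the farther, at chr7:46255817-46256216, had 4.32 in CTRL replicate 2 and 16.7 and 16.9 in BLM. *Kcnrg*, a regulator of potassium channels that is not itself a channel, had 23.4 and 23.2 in BLM alone, ranks 352 and 371, at 430201 bp.

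*Kcnq1*, a voltage-gated channel of epithelia and heart, had a region 248811 bp into the gene with BLM peaks of 13.5 and 9.42. The pair *Kcnk16* and *Kcnk5*, both pore-forming background channels, shared a single region, 10547 and 76843 bp away, with 9.48 and 8.95 in BLM. These neighbours are therefore not independent of each other. *Kcnn2*, *Kcnq5* and *Kcna5* had BLM peaks between 4.24 and 9.18, and *Kcnf1* and *Kcne1* between 8.13 and 15.7, with no CTRL peak at any of them. Among the TRP genes, *Trpm1*, a channel of retinal bipolar cells, had 5.10 in CTRL replicate 2 and 8.94 and 23.7 in BLM at 154801 bp upstream, and *Trpc4ap* had 8.87 and 7.44 in BLM alone.

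More than 1 region was assigned to 5 of 51 transporter genes (9.80%), against 186 of the other genes (13.5%). These were *Cacna1e*, *Slc38a4*, *Slc15a4*, *Kcnc1* and *Atp6v1a*. In 4 of these 5 a region other than the nearest had the highest mean BLM percentile. *Atp6v1a*, whose regions both lie within the gene, was the one with its strongest region nearest to the TSS. The same count for the 186 other genes is not given here, so 4 of 5 has no background.

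All peaks around the TSS were then counted, whether or not the enriched list held them. The position of the TSS was derived from the region and the distance for the 40 transporter genes with a known strand. Within 10 kb on each side the CTRL lists held 59 and 53 peaks and the BLM lists 58 and 52. Between 24 and 25 of the 40 genes had a peak in a given library (60.0% to 62.5%), against 72.1% to 73.3% of 1035 other genes. Over the promoter window itself, 16 of the 40 (40.0%) had a peak in all 4 libraries and 22 (55.0%) in none, against 50.4% and 36.3% of the others. The other 2, *Abcc5* and *Atp5o*, had one in some libraries of both conditions. A promoter peak in both BLM libraries alone was found at 0 of the 40 and at 1.16% of the others, and one in both CTRL libraries alone at 0 and 1.26%, so that 0 of 40 is close to the share of the other genes. The start site could be checked against the other gene of the region for 33 of the 40 and missed by 1180 to 43005 bp at 4 (*Kcnc1*, *Slc25a21*, *Atp8b4* and *Slc24a5*), all counted as having no promoter peak. Over the 29 genes with a gap within 1000 bp, 13 (44.8%) had a promoter peak in all 4 libraries and 14 (48.3%) in none, against 50.5% and 36.3% of 695 other genes checked in the same way.

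For 15 genes all 4 libraries had a promoter peak while the enriched region lay elsewhere. The fold enrichments of the conditions overlapped at 9 of these promoters (60.0%, against 49.9% of 491 such promoters of other genes). Both CTRL values exceeded both BLM values at 5 (33.3%, against 42.4%), which were *Atp6v1d*, *Slc25a36*, *Slc35e3*, *Slc9a8* and *Trpc4ap*. This order is of raw fold enrichments, whose medians over whole lists were 7.37 and 7.29 for CTRL and 6.67 and 6.59 for BLM. In percentiles within each list, the conditions overlapped at *Atp6v1d*, *Slc25a36* and *Trpc4ap*, and CTRL stayed higher at *Slc35e3* and *Slc9a8*. A loss of p53 at these promoters was not tested. At *Slc25a36* the promoter peak had 12.6 and 10.6 for CTRL and 9.55 and 10.3 for BLM. At *Slc9a8* it had 10.8 and 11.3 for CTRL and 7.96 and 8.90 for BLM. Both BLM values were the higher at *Slc7a1* alone (6.67%, against 7.74%), with 8.13 and 8.91 against CTRL values of 6.05 and 7.71. Among the 9 promoters with overlap, *Slc6a14* had 10.6 and 10.9 for CTRL and 9.75 and 12.4 for BLM. *Slc38a6*, whose sequence is shown above, had 14.3 and 11.3 for CTRL and 13.5 and 8.59 for BLM. No peak lay within 10 kb of the TSS in any library at *Cacna1e*, *Slc8a1*, *Kcna5*, *Slc38a4*, *Abca8b*, *Kcnk16*, *Kcnt2*, *Slc10a4* and *Slc13a4*. The same held at *Atp8b4*, *Slc24a5* and *Slc25a21*, whose start site missed in the check above. The share of other genes without such a peak in any library is not given here.

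Of 32 genes known for transport in the alveolar epithelium, 6 were in the table: the amino acid importer *Slc6a14*, the channel *Kcnq1* and the proton pump subunit *Atp6v1a* described above, and *Cftr*, *Ano1* and *Piezo1*, which the symbol rule does not take. None of the 6 had a region within 5 kb, as few genes did over the whole table (13.0%). *Cftr*, the chloride channel of airway epithelium, had BLM peaks of 11.7 and 11.0 and no CTRL peak at 212078 bp. Of 14 transporter genes with a described link to p53, *Slc2a1* and *Kcnq1* were in the table, and neither had its region within 5 kb. The share of all genes of the genome that the table holds is not given here, so the counts from both lists have no background.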

How the data were processed

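The authors called p53 peaks in each library separately and deposited for every peak the −log10 p and −log10 q, a score equal to 10 times the latter after rounding, and the fold enrichment over local background, which is a ratio. The submitters' notes name Trim Galore 0.6.7, Bowtie2 2.5.1, MACS3 3.0.0b1, DiffBind 3.8.4 and edgeR 3.40.2, with no role or order. The criteria of the enriched list are not given in the sources used here. The authors assigned regions to genes with GREAT 4.0.4 on mm10, with a basal domain of 5000 bp before and 1000 bp after the TSS and extensions of at most 1000000 bp, and the positions of regions and peaks are on GRCm39. No coordinate was converted. Positions on the builds differ by locally constant offsets, which agreed within 1000 bp between both genes of a region for 29 of 33 transporter genes checked, so implied TSS positions are approximate. The 11 genes without a strand were left out of promoter counts. Gene spans, strands and promoters came from RefSeq GRCm38.p6.

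Overlaps, taking the highest fold enrichment where several peaks met a region, were found with Python 3.11.15, pandas 2.3.3 and numpy 2.4.6, and plots drawn with matplotlib 3.10.9. In a test on simulated data all 900 regions were assigned to the right libraries. No test was run: 2 libraries against 2 allow no two-sided exact permutation p below 0.333. Values in every library are given for genes within 5 kb, the 10 with the highest mean BLM percentile, those with 2 or more regions, and those at a mean CTRL percentile of at least 90. The genes and lists were chosen with earlier results of these data known. The 4 input libraries were not analysed here. The second gene of 1 region is not reported here.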

Additional observations from a re-analysis of the deposited data

How the results depend on the processing

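Of 54 values recomputed under other settings, 39 stayed within the limits used (1.5 times for counts and distances, and the SD between replicate medians for percentiles). The median CTRL replicate 1 percentile was 82.4 with peaks of −log10 q of at least 5 and 84.9 when the overlap had to reach 50% of the shorter interval. With 1 gene per region, the nearer, the median distance was 9959 bp over the 20 genes left. Regions within 1, 10 and 50 kb of the TSS were held by 1, 10 and 21 transporter genes, and counting only regions within 50 kb left 1 gene with 2 or more. Peaks within 2 kb of the TSS numbered 31 and 27 in CTRL and 32 and 28 in BLM libraries, and within 50 kb 140 and 139, and 125 and 126. Leaving out each library in turn gave 35 to 38 regions and 34 to 36 genes called in BLM and not in CTRL. All 56 regions had a peak in both BLM lists, so leaving out a BLM library could not change these counts. Leaving out a CTRL library could only raise them. The values without a BLM library, counted among the 39 within the limits, are therefore no check of stability. No paired analysis was possible because the results come from no test and the replicate numbers do not tie libraries to a mouse. The unknown depth limits all statements on missing peaks, and 2 libraries per condition limit the precision.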
